A study of Mus musculus with 6 samples.

Results

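Splicing factors and RNA helicases were compared between tumorspheres of 2 mouse ovarian cancer lines. They were chosen by gene symbol alone and comprise SR and hnRNP proteins, components of the small nuclear ribonucleoproteins (snRNPs), PRPF, SF3 and U2AF proteins, numbered RBM, DDX and DHX genes, CLK kinases, the CELF, MBNL, RBFOX, PTBP, NOVA, QK and RBPMS regulators and the Igf2 mRNA-binding proteins. The interferon sensors Ddx58 and Dhx58 were left out by the rule. These 90 genes stood among 7320 listed in the deposited table, which holds only genes that the authors had called different between the lines. RefSeq has 213 protein-coding mouse symbols of the same pattern, so 42.3% of the family was listed, beside 42.2% of the 17359 genes that the authors tested. Members outside the table, among them every Esrp, Elavl and Khdrbs gene, were not analysed here.

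ID8 is a line of transformed ovarian epithelial cells from C57Bl6 mice. KMF, called ID8-IP in the deposited labels, was obtained from ID8 by early recovery of ascites cells from mice of that strain, and the study found a DNA gain of Myc in it. Each line had 3 libraries of poly-A RNA from cells grown for 5 days as floating spheres in PromoCell XF medium, a serum-free medium, with no treatment. ID8 replicates 1, 2 and 3 were at passages 23, 24 and 35 and KMF replicates at passages 14, 17 and 22, so every ID8 library was at a later passage than every KMF library and passage was partly confounded with line.

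Pre-mRNA splicing removes introns in a cycle of assembly and release. SR proteins and hnRNPs bind the transcript and mark or mask its splice sites, the snRNPs recognise those sites, and DEAH and DEAD box helicases use ATP to move the spliceosome from each stage to the next. Regulators that are restricted to certain tissues, such as the muscleblind and RBFOX proteins, then decide which alternative exons a given cell type keeps, while other helicases of the same families unwind ribosomal precursor RNA or sense viral RNA.

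The libraries held 23108407 to 33212313 fragments on genes. The 90 genes took 0.954% to 1.07% of the fragments in ID8 and 1.14% to 1.19% in KMF, and their summed level was 9536 to 10680 CPM (counts scaled to the library total) in ID8 and 11380 to 11890 CPM in KMF. Of 6 epithelial markers examined, Cdh1, Krt7 and Epcam were listed, and their sum was 32.5 to 65.9 CPM in ID8 and 4.34 to 6.78 CPM in KMF. The 4 mesothelial and ovarian surface markers summed to 381 to 537 CPM in ID8 and 370 to 498 CPM in KMF, although Lrrn4, Upk3b and Wt1 were lower, by -4.08, -3.88 and -0.45 on the log2 scale, and Msln was higher by 1.45. Of 7 fibroblast markers 4 were listed, all of them lower in KMF, and summed to 234 to 284 CPM in ID8 and 38.3 to 69.2 CPM in KMF. Of 6 endothelial markers 3 were listed, and their sum of 0.237 to 0.497 CPM in ID8 and 129 to 222 CPM in KMF came mostly from Tek. Cd74 alone was listed of 7 leukocyte markers, at 1.21 to 2.24 CPM in ID8 and 0.303 to 0.551 CPM in KMF. The 14 genes of a cell cycle list, all higher in KMF, summed to 618 to 911 CPM in ID8 and 2420 to 3100 CPM in KMF. The part of these marker and cell cycle genes in the results below was not tested. In bulk RNA, a change in the share of cells that express a gene and a change in RNA per cell cannot be told apart.

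Most of the listed splicing factors and helicases were moderately higher in KMF. Of the 90 genes, 83 passed an adjusted p of 0.05 in edgeR's quasi-likelihood test with Benjamini-Hochberg adjustment over the 17359 genes, and are termed called. Of the 7320 listed genes 6967 were fitted, and 6470 of these were called. Genes outside the table were not fitted here. With these counted as not called, 37.3% of all 17359 genes were called. Because every listed gene had been selected on these same libraries, the number called says nothing of the family, and only direction and size are described. Called members were higher in KMF in 60 cases and lower in 23, that is 72.3% higher (95% Wilson interval 61.8% to 80.8%, counting error only), beside 48.9% higher among all 6470 called genes. Of the 17359 genes, with those outside the table again counted as not called, 18.2% were called higher and 19.0% lower. The ID8 and KMF libraries did not overlap for 86 of the 90 members, beside 96.5% of all listed genes. Lack of overlap, where given for single genes below, was thus usual in this table and sets no member apart. Upper quartile scaling, which shifted the median change of all genes by -0.11 on the log2 scale, gave 37 members higher and 24 lower, or 60.7% higher, beside 41.55% of all genes called with that scaling. With passage in the model 27 members were called higher and 9 lower, and with a replicate block 48 and 15. Leaving out a library changed the number called lower from 23 to 12 without ID8 replicate 1, 15 without KMF replicate 1, 11 without KMF replicate 2 and 12 without KMF replicate 3.

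Most of the changes were small. The median log2 fold change of the members was 0.33, and only 10 of the 83 called members changed at least 2-fold, or 12.0%, beside 43.6% of all called genes. The median size of a called change was 0.45 on the log2 scale for members and 0.84 for all genes. The median level was 22.0 FPKM (fragments scaled to gene length and library total) for members and 9.08 FPKM for listed genes. The members that changed at least 2-fold were Rbfox3, Ptbp3, Nova1, Rbm20, Mbnl1 and Igf2bp2 among those higher in KMF and Celf4, Ddx60, Rbpms2 and Mbnl3 among those lower. Of these 10, 7 belong to the CELF, MBNL, RBFOX, PTBP, NOVA, QK and RBPMS regulators of alternative exons, so those are described first.

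**Figure D1:**
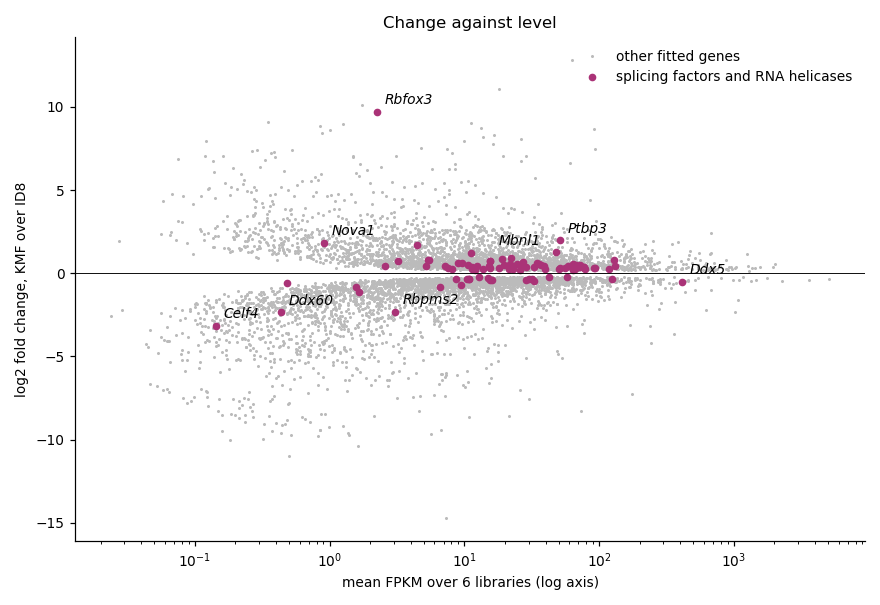
Log2 fold change of KMF over ID8 (vertical axis) against the mean FPKM over the 6 libraries (horizontal, log axis) for the splicing factors and RNA helicases (large points) and the other fitted genes (small grey points). The members lay within the narrow central band apart from 10 that changed at least 2-fold, of which 7 are named beside Ddx5, the member with the highest FPKM.

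Rbfox3 was present in every KMF library and barely detected in ID8. It encodes NeuN, the RBFOX protein used as a marker of mature neurons, and spans chr11:118489762-118911597 on the minus strand of GRCm38. ID8 replicates 1, 2 and 3 held 1, 0 and 0 counts, and KMF replicates 467, 160 and 519, which is 6.29, 2.20 and 4.96 FPKM. All KMF libraries were far above all ID8 libraries, and KMF replicate 2 was the lowest of its line. Summed over the libraries, the ratio was 1137, with an exact interval of 204 to 44950 that covers counting error only. The edgeR adjusted p was 6.64e-05. Of 9 neuronal markers, 3 were listed and did not move together, since Map2 rose and Snap25 and Tubb3 fell, and their sum was 59.2 to 86.8 CPM in ID8 and 22.4 to 29.0 CPM in KMF. A noncoding gene on the opposite strand overlaps Rbfox3, and its reads cannot be told apart without strand. A further noncoding gene lies in an intron of Rbfox3 on the same strand.

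Ptbp3 was several-fold higher in KMF. It is the member of the polypyrimidine tract-binding proteins, which repress exons, that is known from blood cells. Its level was 20.7, 21.1 and 21.7 FPKM in ID8 and 77.0, 85.8 and 78.7 FPKM in KMF. Every KMF library exceeded every ID8 library by more than 3-fold. The log2 fold change was 1.97 ± 0.08 (SE, n = 3 a line), with an edgeR adjusted p of 5.78e-06, and the gene was called in each of the 17 alternative analyses. Its position is chr4:59471868-59549364, minus strand, and of 8 called neighbours within 1 Mb, 4 were higher and 4 lower in KMF.

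The muscleblind genes moved apart. Muscleblind proteins bind CUG and related repeats and switch fetal to adult exons, and Mbnl3 is the form linked to immature muscle. Mbnl1 was at 29.6, 29.1 and 28.3 FPKM in ID8 and 69.5, 66.4 and 65.6 FPKM in KMF, a log2 fold change of 1.25 ± 0.07 (edgeR adjusted p = 1.81e-05). Mbnl3 was at 2.52, 2.27 and 2.10 FPKM in ID8 and 0.648, 1.36 and 1.05 FPKM in KMF, a log2 fold change of -1.13 ± 0.26 (edgeR adjusted p = 0.0103), and this call was lost with passage in the model. The libraries of the lines did not overlap for either gene. As a share of the summed FPKM of both, Mbnl3 fell from 7.33% ± 0.48 (SD, n = 3) to 1.502% ± 0.54. Mbnl1 had no called neighbour within 1 Mb.

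Both RBPMS genes were lower in KMF, by unequal amounts. Rbpms and Rbpms2 are RNA-binding proteins known from smooth muscle. Rbpms2 was at 4.85, 4.92 and 5.47 FPKM in ID8 and 0.938, 1.00 and 1.02 FPKM in KMF, and its log2 fold change was -2.32 ± 0.17 (edgeR adjusted p = 5.1e-05). Rbpms was at 35.3, 36.7 and 30.6 FPKM in ID8 and 26.6, 25.8 and 26.9 FPKM in KMF (log2 fold change -0.33 ± 0.09), and the call on Rbpms was lost without ID8 replicate 1 or 2 or KMF replicate 2 or 3. The decrease of Rbpms2 was the larger, and its share of the summed FPKM went from 13.0% ± 1.87 to 3.61% ± 0.17.

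Nova1 and Celf4, regulators known from neurons, went in opposite directions at low levels. Nova1 was at 0.484, 0.402 and 0.328 FPKM in ID8 and 1.64, 1.25 and 1.34 FPKM in KMF, a log2 fold change of 1.83 ± 0.21. Celf4 had 48, 23 and 14 counts in ID8 and 3, 0 and 6 in KMF, where the count of 0 allows a level of up to 0.0325 FPKM in that library, and its log2 fold change was -3.16 ± 0.73 (edgeR adjusted p = 0.0104). Neither gene overlapped between the lines. Celf1, the widely expressed member of its family, was at 20.9 to 22.1 FPKM in ID8 and 23.6 to 25.6 FPKM in KMF, and the call on its log2 fold change of 0.23 was lost in 11 of 17 alternatives. Celf4 is overlapped by antisense noncoding genes, and reads of these cannot be told apart from its own without strand.

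Qk, which encodes quaking, a regulator known from glia, was at 22.4, 21.5 and 22.2 FPKM in ID8 and 31.7, 32.1 and 31.7 FPKM in KMF. The spread within each line was under 1 FPKM, and the log2 fold change of 0.57 ± 0.06 (edgeR adjusted p = 0.000276) was called in every alternative.

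**Figure D2:**
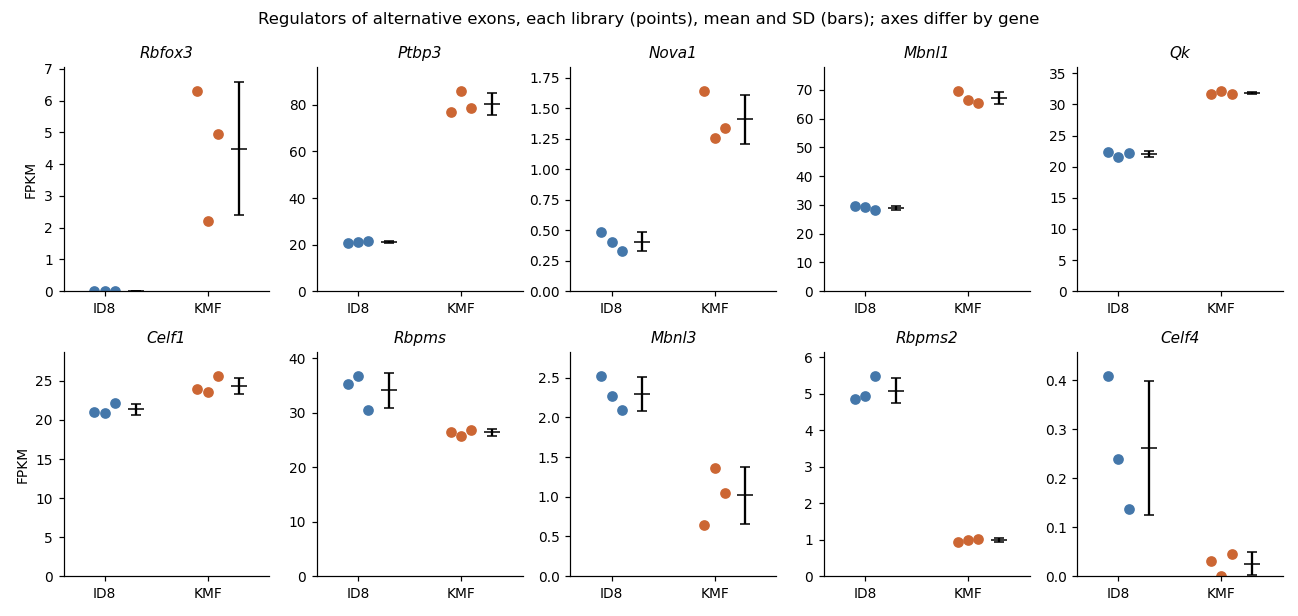
FPKM (vertical axis, from 0, scaled by gene) of the 10 regulators of alternative exons in each ID8 and KMF library (points), with the mean and SD of 3 libraries (bars). Rbfox3, Ptbp3, Nova1, Mbnl1, Qk and Celf1 were higher and Rbpms, Mbnl3, Rbpms2 and Celf4 lower in KMF. The lines did not overlap for any of them, nor for 96.5% of all listed genes, which were selected on these libraries.

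The Igf2 mRNA-binding proteins, which stabilise growth-related and fetal transcripts, showed a further shift between related genes. Igf2bp2 was at 6.40, 7.16 and 6.85 FPKM in ID8 and 14.6, 17.2 and 14.5 FPKM in KMF, a log2 fold change of 1.22 ± 0.10 (edgeR adjusted p = 8.1e-05). Igf2bp1 was at 0.644, 0.494 and 0.619 FPKM in ID8 and 0.344, 0.387 and 0.392 FPKM in KMF, a log2 fold change of -0.60 ± 0.20 (edgeR adjusted p = 0.0441). This call on Igf2bp1 was lost in 7 of 15 alternatives, namely with passage in the model, with a replicate block and without ID8 replicate 1, ID8 replicate 3 or any KMF replicate. Igf2bp2 was the more abundant of the pair in every library. Ratios were compared for 7 pairs of related genes, and with 3 libraries a line the exact permutation test, two-sided, cannot go below 0.1. It gave 0.1 for Mbnl1 over Mbnl3, Rbpms over Rbpms2 and Igf2bp1 over Igf2bp2 (0.117 after Benjamini-Hochberg adjustment over the 7). The same 0.1 was given for Lsm10 over Lsm11, Rbm14 over Rbm4 and Rbm14 over Rbm4b. All of these genes were listed because they differed between these same libraries, so no conclusion is drawn from this test.

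SR proteins, which bind exonic enhancers and promote splice site recognition, were listed in 7 of 13 cases. Of these, 6 were called, all of them higher in KMF, beside 48.9% higher among all called genes. The log2 fold changes of the 7 ran from 0.22 to 0.47 around a median of 0.39. Srsf3 was at 61.7, 54.5 and 51.6 FPKM in ID8 and 76.9, 72.2 and 76.3 FPKM in KMF, and its log2 fold change was 0.47 ± 0.08 (edgeR adjusted p = 0.00346). Tra2b, a sequence-specific activator related to the SR proteins, was at 34.0, 33.5 and 32.9 FPKM in ID8 and 44.5, 43.6 and 46.2 FPKM in KMF, a log2 fold change of 0.46 ± 0.06 that was called in every alternative. For both genes the libraries of the lines were separate. Srsf10 overlapped, with 39.0, 37.4 and 35.8 FPKM in ID8 and 38.3, 42.5 and 46.8 FPKM in KMF, and was not called (edgeR adjusted p = 0.0815).

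Srsf7 at 0.46, Srsf2 at 0.39, Srsf1 at 0.32 and Srsf9 at 0.23 on the log2 scale made up the other called SR genes, and the call on Srsf9 was lost in 14 of 17 alternatives. Clk3, a kinase that phosphorylates SR proteins and the only listed member of its family of 4, was at 10.5, 10.4 and 11.2 FPKM in ID8 and 12.6, 15.5 and 14.9 FPKM in KMF, which gave a log2 fold change of 0.46 ± 0.10. The SR calls were sensitive to scaling and to single libraries, since 3 were called with upper quartile scaling, 3 without ID8 replicate 2, ID8 replicate 3 or KMF replicate 3, and 1 with passage in the model.

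The hnRNPs, which package nascent transcripts and often silence exons, had 9 of 21 symbols listed. All 9 were called, beside 6470 of the 6967 fitted genes. Of the 9, 8 were higher and 1 lower in KMF, beside 48.9% higher among all called genes. The median log2 fold change of the 9 hnRNPs was 0.35. Hnrnpa3 changed most, from 99.8, 93.0 and 96.5 FPKM in ID8 to 157, 154 and 175 FPKM in KMF, a log2 fold change of 0.79 ± 0.08 (edgeR adjusted p = 0.000156). Hnrnpul1 and Hnrnpd followed at 0.57 ± 0.08 and 0.54 ± 0.08. Hnrnpf, a G-run binding protein, was the most abundant of the group in ID8 and the next after Hnrnpa3 in KMF. Hnrnpf was at 107, 113 and 104 FPKM in ID8 and 131, 121 and 130 FPKM in KMF (log2 fold change 0.27 ± 0.07). Its call was lost in 7 of 17 alternatives. Hnrnpul2, a relative of Hnrnpul1, was at 65.7, 62.6 and 63.4 FPKM in ID8 and 51.9, 53.6 and 50.7 FPKM in KMF, a log2 fold change of -0.26 ± 0.07. Its call was lost with passage in the model, without ID8 replicate 1 and without KMF replicate 3, each of which left 6 hnRNPs called higher except passage, which left 4. With upper quartile scaling 5 hnRNPs were called higher and 1 lower.

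To describe the promoters of genes that were higher together, the canonical E-box CACGTG, the letters that MYC with its partner MAX is known to bind, was searched for from 250 bases before to 50 after each RefSeq start (GRCm38.p6). The motif reads the same on both strands, and no other motif was searched. Promoters were found for 72 of the 90 genes, and 15 of the 72 held it, or 20.8%, beside 8.09% of all 27025 RefSeq genes and 11.9% of called listed genes. The share was 18.8% of 48 members higher in KMF and 21.1% of 19 lower. It was held by 5 of 7 matched hnRNPs and by 0 of 7 SR proteins. Among U2 and tri-snRNP assembly factors 2 of 7 held it, and among splicing and export helicases 2 of 6. RBM proteins held it in 2 of 12 cases and snRNP proteins in 1 of 12. For regulators of alternative exons and for ribosome biogenesis helicases the count was 1 of 7 each, and for other helicases 1 of 5. The 1 matched Igf2 mRNA-binding protein and the 1 matched SR protein kinase lacked it. A match is a description and not a binding site. The hnRNP windows are shown because all 5 genes were higher in KMF, each as 30 bases with the E-box in capitals.
Hnrnpa3: cggatagcacatCACGTGgtgactggcccc
Hnrnpd: gcgctccggagcCACGTGaccgggacgcgc
Hnrnpf: cgagcgggcgctCACGTGgcccgaggcgcc
Hnrnph2: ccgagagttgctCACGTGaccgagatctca
Hnrnpm: gtcgttcggggtCACGTGagcgcgcaggcg
The promoters were chr2:75659009-75659308 (plus strand) for Hnrnpa3, chr5:99978889-99979188 (minus) for Hnrnpd, chr6:117907554-117907853 (plus) for Hnrnpf, chrX:134600929-134601228 (plus) for Hnrnph2 and chr17:33685409-33685708 (minus) for Hnrnpm. The E-box lay close to the RefSeq start in all of them, with its first base between position -79 in Hnrnpf and 15 in Hnrnph2, counting the start as 0. The starts used for Hnrnpf and Hnrnpm lay inside the deposited genes (chr6:117900324-117925622 and chr17:33646233-33686860). Which starts these cells used was not examined.

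Of 25 snRNP and LSM protein symbols 15 were listed, and these were nearly uniform in direction. All 15 were called, beside 6470 of the 6967 fitted genes. Of the 15, 14 were higher and 1 lower, beside 48.9% higher among all called genes. The median log2 fold change of the 15 was 0.44. One of the 15, Lsm14a, is a processing-body protein taken in by its symbol, and without it 13 of 14 were higher. The ring of Lsm2 to Lsm8, which holds the end of U6 RNA in the nucleus, had 6 members listed, each of them higher, from Lsm4 at 0.33 to Lsm2 at 0.86, although the call on Lsm4 was lost in 13 of 17 alternatives. Lsm2 was at 14.0, 14.1 and 13.1 FPKM in ID8 and 23.9, 21.4 and 27.4 FPKM in KMF (edgeR adjusted p = 0.000697). Lsm8, the subunit that sets the nuclear ring apart from the cytoplasmic one, was at 11.7, 13.5 and 9.998 FPKM in ID8 and 18.4, 17.2 and 21.5 FPKM in KMF, a log2 fold change of 0.74 ± 0.13. Neither overlapped between the lines. KMF replicate 2 was the lowest of its line for Lsm2 to Lsm8 in each case listed.

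The Sm ring, the common core of U1, U2, U4 and U5, had 3 listed members that were all higher, Snrpd1 by 0.48, Snrpb by 0.44 and Snrpe by 0.30 on the log2 scale, of which the call on Snrpe was lost in 12 of 17 alternatives. By mean FPKM over the 6 libraries, Snrpb ranked next after Ddx5 among the members. Snrpb was at 114, 109 and 114 FPKM in ID8 and 165, 142 and 138 FPKM in KMF. This rank held in neither line alone. The mean of Sf3b2 was above that of Snrpb in ID8 (141.8 beside 112.8 FPKM). In KMF the mean of Hnrnpa3 was above it (162.1 beside 148.4 FPKM). Snrpa1, a U2-specific protein, was at 12.4, 12.6 and 10.7 FPKM in ID8 and 17.7, 18.5 and 20.5 FPKM in KMF, a log2 fold change of 0.71 ± 0.11. The U1 proteins Snrpa and Snrpc had log2 fold changes of 0.24 and 0.20, and their calls were lost in 13 and 15 of 17 alternatives.

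Lsm10 was the exception. It pairs with Lsm11 in the U7 snRNP, which trims histone transcripts rather than splicing introns. Lsm10 was at 16.7, 17.7 and 19.3 FPKM in ID8 and 12.5, 13.1 and 13.6 FPKM in KMF, a log2 fold change of -0.41 ± 0.12, while Lsm11 was at 2.03, 2.36 and 2.21 FPKM in ID8 and 2.87, 2.94 and 2.96 FPKM in KMF, a log2 fold change of 0.45 ± 0.11. The share of Lsm11 in their summed FPKM thus went from 10.9% ± 0.74 to 18.3% ± 0.39. In place of 13, the number of snRNP genes other than Lsm14a called higher was 6 with upper quartile scaling, 2 with passage in the model, and 8 without ID8 replicate 1, KMF replicate 1 or KMF replicate 3. The call on Lsm10 was lost in 7 of 17 alternatives. These were passage in the model, a replicate block and leaving out any library except ID8 replicate 1.

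**Figure D3:**
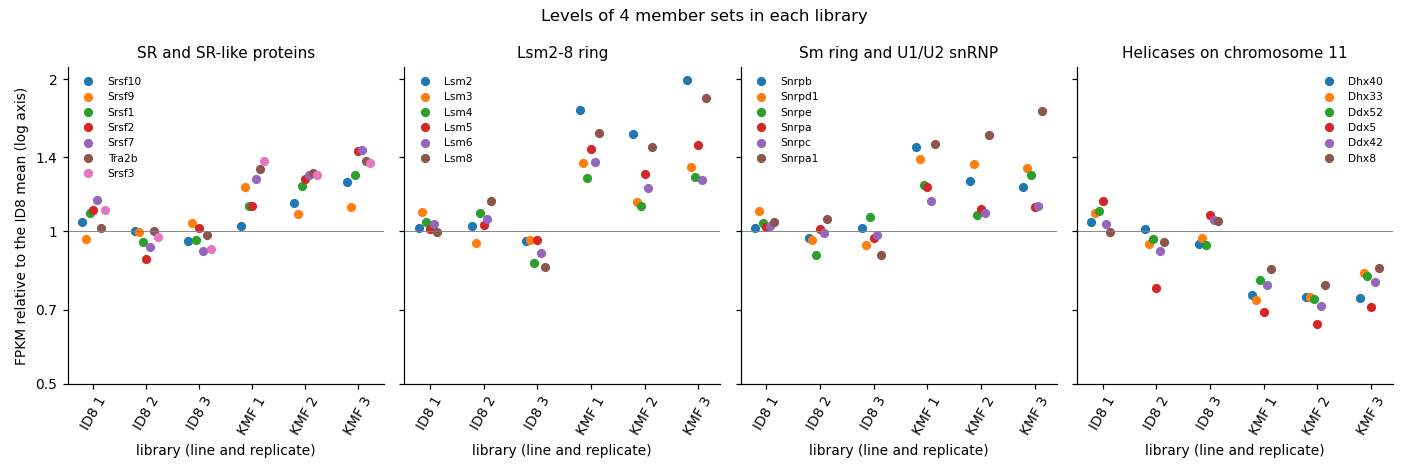
FPKM relative to the ID8 mean of each gene (vertical, log axis) in each of the 6 libraries for the listed SR proteins, the Lsm2 to Lsm8 ring, the Sm ring with U1 and U2 proteins, and the helicases of chromosome 11. Apart from Srsf10 each gene of the first 3 panels was higher in KMF than in ID8, and the 6 helicases in the last panel were lower.

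Factors of U2 and tri-snRNP assembly were divided, with 4 called higher, 3 lower and 2 not called of 9. Prpf38b, and Prpf3 of the tri-snRNP, were higher by 0.68 ± 0.13 and 0.63 ± 0.10 on the log2 scale, and Prpf18, of the last catalytic step, by 0.43 ± 0.09. Prpf6, the bridge between U5 and U4/U6, was at 39.2, 35.9 and 41.7 FPKM in ID8 and 28.0, 25.3 and 28.1 FPKM in KMF, a log2 fold change of -0.48 ± 0.08 (edgeR adjusted p = 0.00216). Sf3b2, a subunit of the U2 complex that binds the branch site, was at 141, 132 and 152 FPKM in ID8 and 112, 108 and 108 FPKM in KMF, a log2 fold change of -0.33 ± 0.07. Sf3b2 was the most abundant of the group, whose summed level was 1093 to 1196 CPM in ID8 and 1022 to 1033 CPM in KMF. Prpf19, the ubiquitin ligase of the activated spliceosome, was lower by -0.24 ± 0.07, and its call was lost in 6 of 17 alternatives, namely with passage in the model, with a replicate block and without ID8 replicate 1 or 2 or KMF replicate 2 or 3. The call on U2af1, which recognises the end of the intron, was lost in 13 of 17. With passage in the model the call on Sf3b2 was lost too, and 3 of the group were called higher and 1 lower.

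RBM proteins are a mixed family named for the RNA-binding motif they share. Of 15, 8 were called higher, 4 lower and 3 not called. The number called higher was 6 with upper quartile scaling and 4 with passage in the model. Rbm20, the regulator of titin splicing in heart, was at 2.15, 2.58 and 1.74 FPKM in ID8 and 6.05, 7.60 and 6.54 FPKM in KMF, a log2 fold change of 1.68 ± 0.17 (edgeR adjusted p = 0.000201). Rbmx2 and Rbm38, the latter a known p53 target, were higher by 0.77 ± 0.14 and 0.76 ± 0.15. Rbm8a, a core subunit of the exon junction complex, was at 27.3, 26.5 and 30.1 FPKM in ID8 and 44.7, 38.5 and 40.9 FPKM in KMF. Rbm47, an epithelial splicing regulator, was at 11.1, 12.1 and 12.2 FPKM in ID8 and 6.67, 6.39 and 8.16 FPKM in KMF, a log2 fold change of -0.70 ± 0.10 (edgeR adjusted p = 0.00135), and the lines did not overlap. Rbmx, an X-linked relative of the hnRNPs, varied within each line, from 13.2 to 19.6 FPKM in ID8 and from 17.1 to 27.9 FPKM in KMF, and was not called (edgeR adjusted p = 0.0796). Rbm15b and Rbm33 were not called either, with log2 fold changes of 0.27 and 0.30.

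Rbm14, Rbm4 and Rbm4b lie beside each other at chr19:4756543-4811634, and Rbm14 moved against its neighbours. Rbm4b was at 9.16, 7.23 and 9.28 FPKM in ID8 and 4.25, 5.27 and 4.57 FPKM in KMF, a log2 fold change of -0.82 ± 0.13. Rbm14, a coactivator found in paraspeckles, was at 9.89, 9.21 and 7.74 FPKM in ID8 and 11.6, 12.7 and 12.7 FPKM in KMF, a log2 fold change of 0.50 ± 0.11 (edgeR adjusted p = 0.00878), and its call was lost with passage in the model. Rbm4 was lower by -0.83 ± 0.24, and its call was lost in 6 of 17 alternatives, namely with passage in the model, with a replicate block and without ID8 replicate 1 or any KMF replicate. Of 58 called neighbours of Rbm14 within 1 Mb, 10 were higher and 48 lower. Rbm4 and Rbm4b are near-identical copies and a readthrough gene spans the cluster, so the way reads were divided between them is uncertain. The ratio of Rbm4 to Rbm4b gave an exact permutation p of 0.9 between the lines, with a mean log2 ratio of -2.11 ± 0.26 (SD, n = 3) in ID8 and -2.09 ± 0.15 in KMF.

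**Figure D4:**
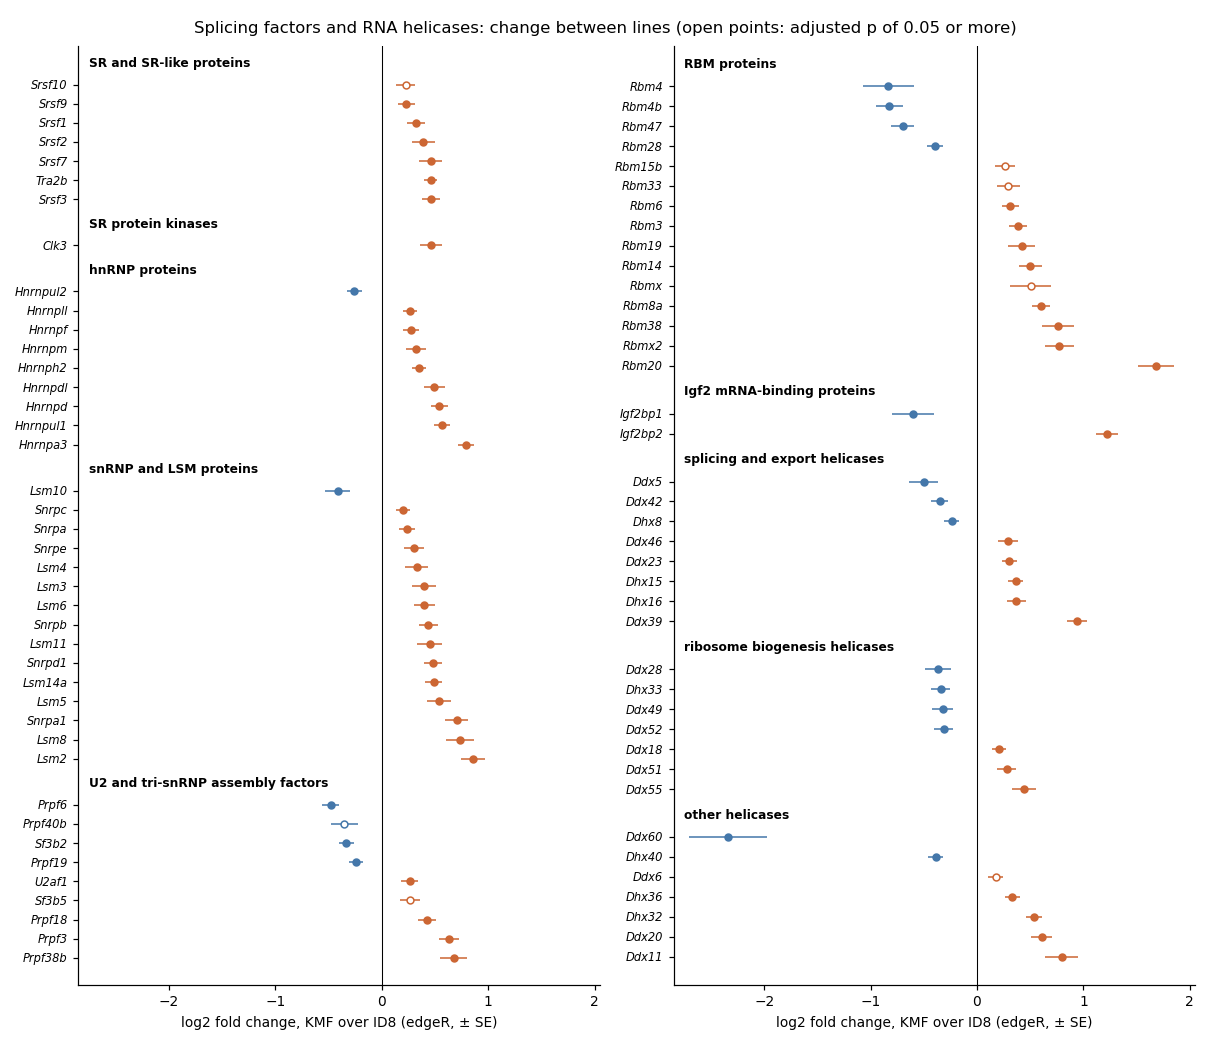
Log2 fold change of KMF over ID8 with its SE (horizontal axis) for the 80 members outside the regulators of alternative exons, grouped by role. Filled points were called and the 7 open points were not, and points to the left of the line at 0 were lower in KMF.

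The listed helicases were divided in direction. Of 22, 12 were called higher, 9 lower and 1 not called, or 57.1% higher. These counts were 6 higher and 9 lower with upper quartile scaling and 5 and 2 with passage in the model. The number called lower was 5 without ID8 replicate 2 or 3 and with a replicate block, 4 without KMF replicate 1 or 3, 3 without ID8 replicate 1 and 2 without KMF replicate 2, with 8 to 10 called higher. Ddx39, a DEAD box protein of mRNA export, was at 15.9, 16.5 and 13.8 FPKM in ID8 and 30.1, 27.4 and 29.0 FPKM in KMF, a log2 fold change of 0.94 ± 0.09 (edgeR adjusted p = 0.000178). Dhx15, which releases the spent spliceosome, and Dhx16, which acts in its activation, were higher by 0.36 and 0.37. Ddx20, the gemin subunit of the SMN complex that loads Sm rings, was higher by 0.61 ± 0.10. Ddx11, a DNA helicase of the same nomenclature with a role in sister chromatid cohesion, was higher by 0.80 ± 0.16, and Dhx32 by 0.54 ± 0.08.

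Ddx60, an interferon-induced helicase of the antiviral response, had the largest decrease of this class. It was at 0.674, 0.753 and 0.774 FPKM in ID8 and 0.227, 0.116 and 0.0854 FPKM in KMF, a log2 fold change of -2.34 ± 0.37 (edgeR adjusted p = 0.00168), at levels under 1 FPKM in each library. Helicases of ribosome biogenesis were split, with Ddx55, Ddx51 and Ddx18 called higher and Ddx28, Dhx33, Ddx49 and Ddx52 lower, with log2 fold changes from -0.37 for Ddx28 to 0.44 for Ddx55. None of these 7 calls held in every alternative, and when any 1 library was left out at most 2 of the 7 were called, except without ID8 replicate 3, where 4 were. Ddx6, the helicase of processing bodies, overlapped between the lines and was not called (edgeR adjusted p = 0.0999).

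The helicases listed on chromosome 11 had 1 direction. All 6 were called lower in KMF, and of the 16 elsewhere 12 were higher, 3 lower and 1 not called. Those elsewhere were 6 higher and 3 lower with upper quartile scaling, 5 and 1 with passage in the model and 9 and 1 with a replicate block. Without ID8 replicate 1, 2 or 3 or KMF replicate 2 or 3, 8 to 10 of them were called higher and 1 lower. Of all called genes on chromosome 11, 27.2% were higher. Ddx5, a DEAD box coactivator that also unwinds splice site duplexes, had the highest level of any member. It was at 558, 376 and 525 FPKM in ID8 and 337, 320 and 344 FPKM in KMF, a log2 fold change of -0.50 ± 0.14 (edgeR adjusted p = 0.0229). ID8 replicate 2 lay closer to the KMF libraries than to the other ID8 libraries. The call on Ddx5 was lost in 6 of 17 alternatives, namely with passage in the model and without each library except ID8 replicate 2. Ddx42, a DEAD box protein of U2 assembly, lies within 1 Mb of Ddx5 and was lower by -0.35 ± 0.08. Dhx40, Dhx33, Ddx52 and Dhx8 were lower by -0.39, -0.34, -0.31 and -0.24. The direction was the same in each alternative, but the number of the 6 called lower was 2 without ID8 replicate 1, 4 without ID8 replicate 2 or 3, 2 without KMF replicate 1, 1 without KMF replicate 2, 3 without KMF replicate 3, 4 with a replicate block and 1 with passage in the model. Dhx40 was called in all of these. Of the 17 called neighbours of Ddx5, 15 were lower.

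Of these 6 helicases 4 also hold the E-box, the only 4 of 19 matched members lower in KMF that did, and their windows are shown.
Ddx5: cctgggtccgatCACGTGatgaggccaagc
Ddx42: tcccccatgatgCACGTGggatttttgatc
Dhx40: gggtggcggaggCACGTGgcgatgggcggg
Dhx33: ccagcacgcctgCACGTGgcgagaaagggg
The promoters were chr11:106788858-106789157 (minus strand) for Ddx5, chr11:106230416-106230715 (plus) for Ddx42, chr11:86807611-86807910 (minus) for Dhx40 and chr11:71004383-71004682 (minus) for Dhx33. The start used for Ddx42 lay well inside the deposited gene (chr11:106216926-106249139). The same 6 letters stood in promoters of members that were higher and of members that were lower, and their part in either direction was not tested.

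Counts on other chromosomes were uneven too, and were not tested. All 10 members on chromosome 17 were higher (Qk, Snrpc, Srsf3, U2af1, Hnrnpm, Lsm2, Dhx16, Ddx11, Hnrnpll and Srsf7), where 48.9% of called genes were higher. All 6 on chromosome 3 were higher, where 74.9% of called genes were, and all 5 on chromosome 7, where 61.8% were. On chromosome 19 the 2 higher were Rbm14 and Rbm20 and the 5 lower were Rbm4b, Rbm4, Sf3b2, Hnrnpul2 and Prpf19, beside 25.8% of called genes higher. Chromosome 11 had 4 members higher (Lsm11, Srsf1, Srsf2 and Rbfox3) and 7 lower. Away from chromosomes 11 and 19, 54 called members were higher and 11 lower, or 83.1% higher. Both chromosomes had the lowest percentages of called genes higher, so leaving them out raises the share. The like share of all called genes was not computed. Over all chromosomes it was 72.3% for called members and 48.9% for all called genes. Among the 11 lower members away from chromosomes 11 and 19, the calls on Rbpms, Ddx28, Ddx49 and Lsm10 were lost without KMF replicate 2, and also without KMF replicate 3. Copy number was not analysed here, and its part in these counts was not tested.

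**Figure D5:**
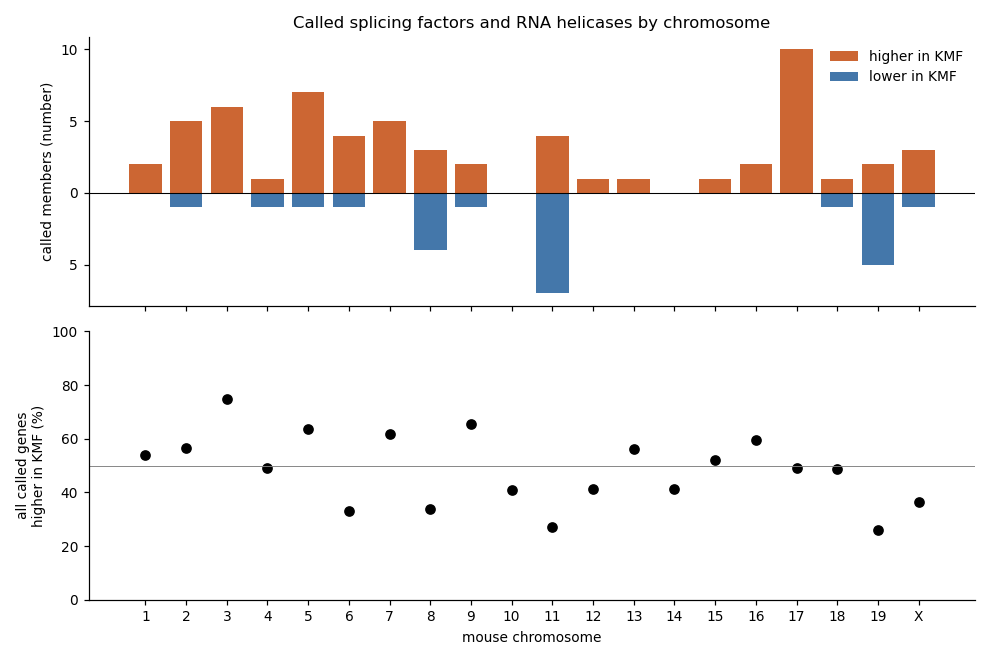
Number of called splicing factors and RNA helicases higher (above 0) and lower (below 0) in KMF on each mouse chromosome (upper panel), and the percentage of all called genes on that chromosome that were higher (lower panel). Chromosomes 11 and 19 held 12 of the 23 lower members and had the lowest percentages, 27.2% and 25.8%. Without KMF replicate 2, 11 members were called lower. Of the lower members on chromosome 11 only Dhx40 was then called, and on chromosome 19 the calls on Rbm4 and Prpf19 were lost.

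Other genes of the pathway, from lists of spliceosome proteins outside the symbol rule, were moderately changed as well. Of 56 other spliceosome proteins 26 were listed, and 14 of these rose and 9 fell in KMF (median log2 fold change 0.29). Smu1, a factor of spliceosome activation, was at 36.4, 36.7 and 40.0 FPKM in ID8 and 80.7, 75.0 and 74.5 FPKM in KMF, a log2 fold change of 1.06 ± 0.07. Of 16 genes of snRNP assembly 4 were listed and all were called higher, namely Clns1a, Wdr77, Prmt7 and Strap, with log2 fold changes from 0.27 to 0.54. Of 24 exon junction and export genes 7 were listed, and 4 were called higher and 2 lower. Beside the counts of these lists, 6470 of the 6967 fitted genes were called, 48.9% of them higher. Smu1 was named after its values were seen, as were the genes of the assembly list.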

How the data were processed

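RNA from 3 ID8 and 3 KMF tumorsphere cultures was analysed from 1 deposited table. Poly-A libraries were made with the NEBNext Ultra kit, which does not mark strand. The methods name TopHat2 for mapping, and the submitters' processing notes name CASAVA 1.8, STAR 2.5, DESeq2 and mm10. The counting tool, annotation and strand setting are not given in the sources used here. The deposited table gives, for each listed gene, counts of fragments in the 6 libraries with no scaling. The authors also deposited FPKM and the gene length in bases. The signal columns in the deposited table, 1 a line, were not used. The authors' deposited log2 fold change, p-value and adjusted p-value, of which the largest was 0.0499, were not used as results. Library totals were recovered from count, FPKM and length. Spreadsheet dates were restored to 14 symbols.

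The quasi-likelihood functions glmQLFit and glmQLFTest of edgeR 4.0.16 (R 4.3.3), with TMM scaling and filterByExpr and no covariate, were run on the counts of all listed genes, two-sided, with Benjamini-Hochberg adjustment over the 17359 genes the authors tested, those outside the table ranking last. The step was tested on simulated data. The 3 samples of each line are described as independent RNA isolations, and no pair of libraries agreed within sampling noise (lowest chi-square per degree of freedom 19.3). Members were named if all libraries of a line held 3 counts or fewer, if they had the 3 largest called changes a direction in a role group at a mean above 1 FPKM, if they belonged to a paralog family, or if they were among the 5 most abundant. Of the members whose call changed between fits some are named and all are counted. Ddx60, Rbm8a and other members named outside this rule were chosen after their values were seen. Members, role groups and lists were chosen with earlier results of these data known. Alternatives were DESeq2 1.42.0, limma 3.58.1 on log2(FPKM + 1) and log2(FPKM + 0.1), other scalings and filters, a passage covariate, a replicate block and leaving out each library. Promoters came from RefSeq (GRCm38.p6). Gene positions are those of the deposited table, and all 90 overlap the GENCODE gene of the same identifier. Overlapping protein-coding genes were found for 16 members. Python 3.11.15, pandas 2.3.3, numpy 2.4.6, scipy 1.17.1 and matplotlib 3.10.9 were used.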

Additional observations from a re-analysis of the deposited data

How the results depend on the processing

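No member changed direction in any of 17 alternatives. Of the 83 called members 35 were called in each alternative that fitted them (27 higher and 8 lower in KMF), and 47 when the passage covariate was set aside. With that covariate, which is partly confounded with line, 36 members were called, 27 higher and 9 lower. Upper quartile scaling gave 37 higher, 60.7% of calls (41.55% of calls over all genes), and a median log2 fold change of 0.22. The median was 0.29 with DESeq2, with a minimum of 10 counts in every library, with library totals alone and with limma on log2(FPKM + 1), with or without a filter. Leaving out each library in turn gave 57 to 67 called, 45 to 53 higher, 11 to 17 lower, 73.0% to 82.8% higher (the highest without KMF replicate 2) and a median of 0.32 to 0.39. The median of all fitted genes was -0.23 but 0.20 with a minimum of 10 counts, so it was not set beside that of the members. The causes of these moves were not tested. Equal replicate numbers did not pair the libraries (correlations 0.0823, -0.0792 and 0.109), and with a replicate block 63 members were called, 48 higher and 15 lower. Depth limited Celf4 and Rbfox3, and 55 members changed side of the threshold in some alternative.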

Other observations

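Splicing regulators and helicases outside the symbol rule were changed as well. The genes named here were chosen after their values were seen. Of 45 other splicing regulators 24 were listed, and 14 were called higher and 6 lower in KMF. Msi1, a Musashi protein of neural and other stem cells, was at 4.51, 3.78 and 4.70 FPKM in ID8 and 0.0406, 0.0276 and 0.0673 FPKM in KMF, a log2 fold change of -6.43 ± 0.28 (edgeR adjusted p = 7.38e-06). Its relative Msi2 was lower by -0.56 ± 0.08. Ybx3, a cold shock domain protein, was at 90.4, 107 and 82.9 FPKM in ID8 and 226, 228 and 246 FPKM in KMF, a log2 fold change of 1.35 ± 0.11.

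The cold-inducible RNA-binding genes Cirbp and Rbm3 differed in direction. Cirbp was at 55.2, 39.4 and 58.6 FPKM in ID8 and 25.7, 21.4 and 18.1 FPKM in KMF, a log2 fold change of -1.19 ± 0.18. Rbm3 was at 69.6, 71.3 and 61.4 FPKM in ID8 and 87.1, 82.1 and 87.7 FPKM in KMF, a log2 fold change of 0.38 ± 0.08. The call on Rbm3 was lost with passage in the model. Neither gene overlapped between the lines.

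Of 18 other RNA helicases 7 were listed, and 2 were called higher and 4 lower. Eif4a2, a helicase of translation initiation, was at 215, 190 and 232 FPKM in ID8 and 106, 141 and 141 FPKM in KMF, a log2 fold change of -0.67 ± 0.12. Of 25 nucleolar genes 12 were listed, and 9 were called higher and 3 lower. Npm1 and Polr1a, a nucleolar chaperone and the large subunit of RNA polymerase I, were lower by -0.48 and -0.59, and Dkc1 and Nop56, of small nucleolar ribonucleoproteins, were higher by 0.55 and 0.53 on the log2 scale.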
